A study of Bos taurus with 147 samples.

Results

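The 36 cows with the highest and the 36 cows with the lowest combined signal of CLK1, PNISR, OSBPL8 and TUT7 were compared, out of 145 cows with values. Each cow was scored by the mean log2 signal of the 4 genes in its adrenal cortex, and the remaining 73 cows lay between both groups. The score was chosen from the arrays themselves. High and low cows therefore had to differ in the 4 genes, and differences of other transcripts of the same arrays are described here without a test.

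All cows were females of the F2 generation of a cross of Charolais and German Holstein, slaughtered on day 30 after calving in their second lactation. The labels name no treatment, and the cows belonged to half-sib and full-sib families that were not modelled here. The high cows were 1152 to 1774 days old and the low cows 1127 to 1772 days old, and both groups were slaughtered in all 4 seasons and over several years up to 2011. The cortex had been dissected from the medulla, and 10986 transcripts were measured on 1 array per cow.

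CLK1 is a kinase that phosphorylates SR proteins, the serine- and arginine-rich factors that select splice sites, and it thereby controls their release from nuclear speckles. PNISR is itself an SR-rich nuclear protein that binds the splicing-associated protein PNN. OSBPL8 is a lipid transfer protein anchored in the endoplasmic reticulum, and TUT7 adds uridines to the ends of RNAs that are to be degraded. The cells of the adrenal cortex make steroid hormones from cholesterol, whereas the chromaffin cells of the medulla make catecholamines.

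The score had a mean of 8.07 ± 0.26 in high cows, 6.63 ± 0.20 in low cows and 7.30 ± 0.22 in the 73 middle cows (SD, log2 signal). The last cow inside the high group had a score of 7.68 and the first outside had 7.65. At the other end, the first cow inside the low group had 6.85 and the last outside had 6.88. The score was thus a gradient over the cows, and its limits fell at no gap.

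CLK1 had signals of 7.78 at the lowest, 8.29 at the median and 8.81 at the highest in high cows, against 5.79, 6.77 and 7.31 in low cows. PNISR ran from 6.66 over a median of 7.19 to 7.78 in high cows and from 5.12 over 5.73 to 6.07 in low cows. OSBPL8 ran from 7.38 over 8.17 to 9.09 in high cows and from 6.29 over 6.84 to 7.38 in low cows. For TUT7, high cows ranged from 8.06 over 8.67 to 9.19 and low cows from 6.57 over 7.22 to 7.82. The choice of the cows fixed these distances, and they support nothing further. Over the 145 cows, the correlation of any pair of the 4 genes lay between 0.83 (OSBPL8 and TUT7) and 0.91 (CLK1 and PNISR).

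**Figure D1:**
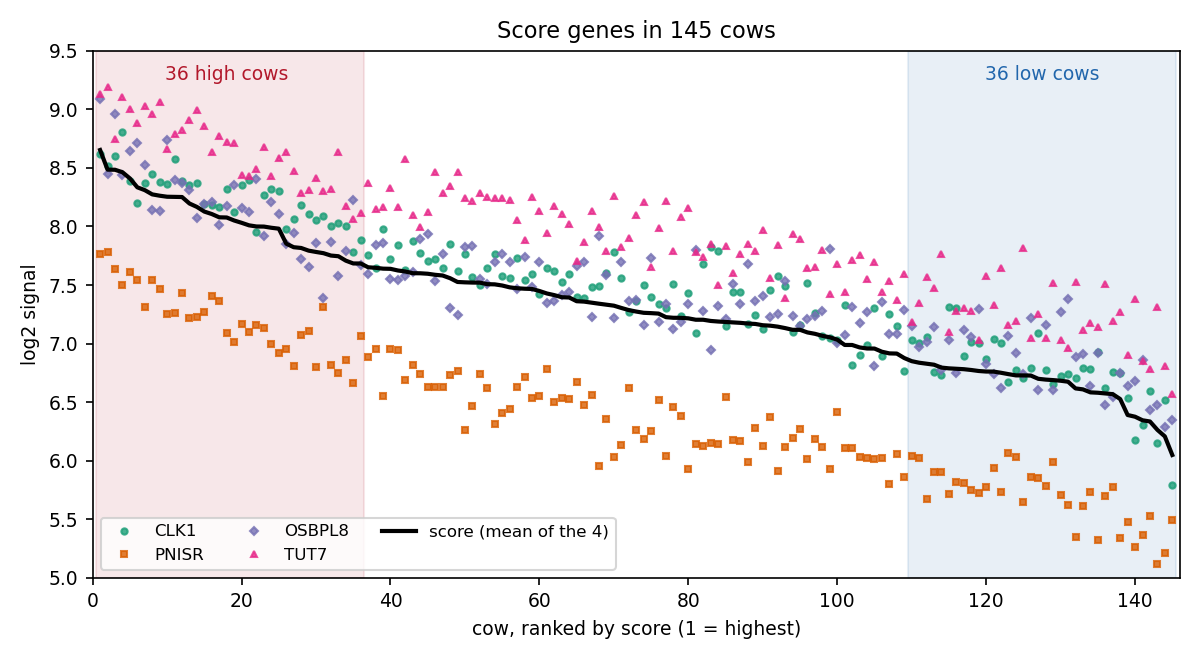
Log2 signal of CLK1, PNISR, OSBPL8 and TUT7 (points) and their mean, the score (line), in 145 cows ranked by score from highest to lowest. The 36 high cows are shaded red and the 36 low cows blue, and the score spans 8.65 to 6.05 without a step.

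The arrays of both groups were compared before the genes. The array median lay between 8.00 and 8.08 in high cows and between 7.89 and 8.05 in low cows, and the ranges overlapped. The interquartile range of an array was 2.21 to 2.40 in high cows, with a median of 2.29, and 2.33 to 2.54 in low cows, with a median of 2.39. The median correlation of an array with all others was 0.950 to 0.979 in high cows and 0.958 to 0.979 in low cows. The 5 arrays with the lowest such correlation (0.950 to 0.957) were all from high cows, with score ranks 1, 2, 3, 4 and 14. Results are therefore also given without these 5 arrays, with 36 cows chosen anew at either end of the score. Of these, 31 high cows and all 36 low cows were the same as before. The labels give neither a scan batch nor a value of RNA integrity for a cow, and the part of either in the differences was not tested.

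The steroid genes gave the strong signals of cortical tissue. HSD3B1, a 3-beta-hydroxysteroid dehydrogenase, had a mean of 13.83 ± 0.03 in high cows and 13.86 ± 0.03 in low cows. CYP11A1, the enzyme of the first step from cholesterol to steroids, had 13.10 ± 0.11 in high cows and 13.16 ± 0.07 in low cows (SD, n = 36 each).

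Of the 10982 transcripts other than the 4 score genes, 1512 (13.8%) were higher in high cows by at least 0.5 log2 units, a 1.41-fold difference, and 349 (3.18%) were lower. Both shares describe the contrast that the score chose, and nothing is read from them. Over all transcripts the median difference, high minus low, was -0.08 with quartiles of -0.28 and 0.26. Only 41.9% of the differences were above 0, so that a minority of transcripts with large positive differences stood against many with small negative ones. For 195 transcripts (1.78%), every high cow lay above every low cow. No transcript had every high cow below every low cow.

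At a smaller limit of 0.3 log2 units the counts were 2495 higher and 2467 lower, and at 1 log2 unit they were 192 higher and 4 lower. The share of positive differences among the called transcripts thus moved from 50.3% at 0.3 over 81.2% at 0.5 to 98.0% at 1. When the array median was subtracted from each array, 1386 were higher and 501 lower (73.5% positive). Among other settings, the lower count was 701 with 29 cows in each group, 125 with 48, and 206 on residuals of year-season class and age. With the 5 arrays left out, 1298 were higher, of which 1297 belonged to the 1512, and 169 were lower, of which 166 belonged to the 349.

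The 73 middle cows had no part in the group means. Their mean lay between those of high and low cows for all 1512 higher and all 349 lower transcripts, and for 9736 of all 10982. The middle cows held the middle of the same score, so this order is only a description. Within the middle cows, the median correlation with the score was 0.49 for the 1512 transcripts and -0.30 for the 349, against -0.04 for all transcripts. Over the 145 cows, 1306 transcripts (11.9%) had a correlation with the score of at least 0.7 and 544 (4.95%) of at most -0.7. These correlations share arrays and score genes and are given as a description.

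The transcripts were also ranked by mean signal into 5 bins of equal number. From the weakest to the strongest bin, 13.5%, 19.7%, 16.5%, 13.2% and 5.92% were higher in high cows, and 1.27%, 2.69%, 3.83%, 5.28% and 2.82% were lower. The strongest bin thus held the smallest share of higher transcripts of the 5.

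**Figure D2:**
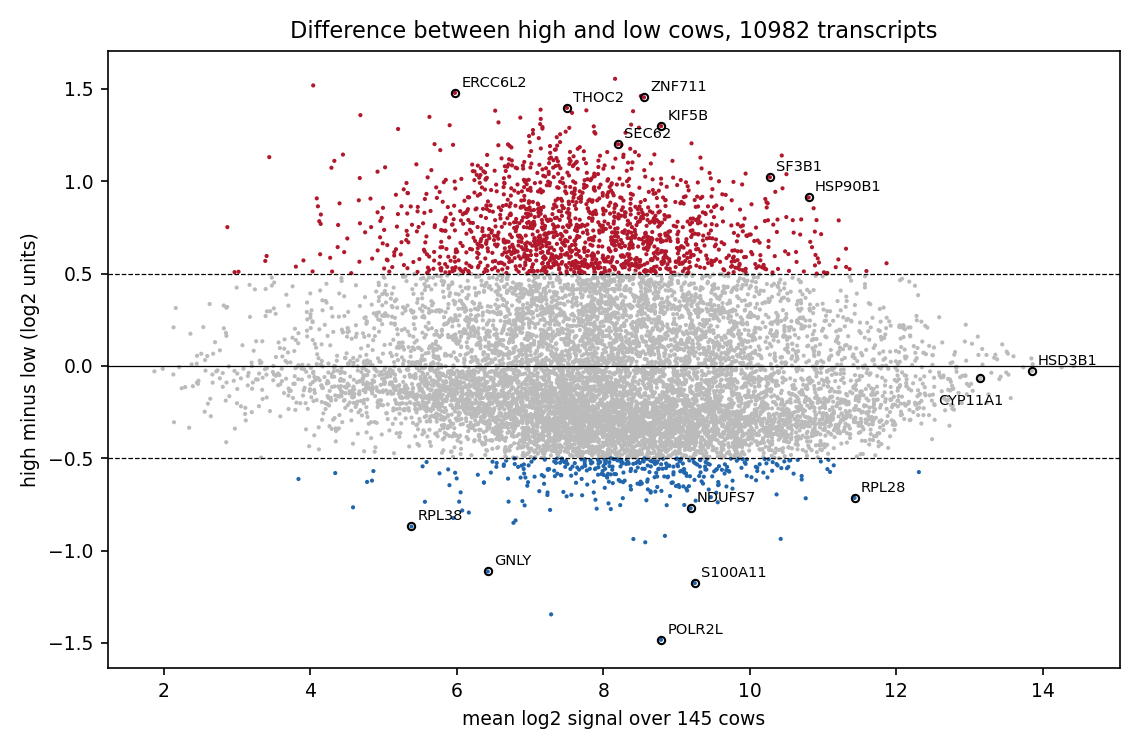
Difference of the group means (high minus low, log2 units) of 10982 transcripts against their mean log2 signal over 145 cows. Red points are at least 0.5 higher and blue points at least 0.5 lower in high cows; CYP11A1 and HSD3B1 lie near 0 at the strongest signals, and POLR2L has the lowest difference of -1.48.

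Transcript classes were taken from the RefSeq entry of the platform symbol. Protein-coding genes numbered 8439, with 1280 higher (15.2%) and 275 lower (3.26%). Of 158 microRNA genes 8 were higher and 3 lower, and their median signal of 5.40 was below that of the protein-coding genes, 8.22. The 19 long non-coding RNAs had 1 member higher and 1 lower, and the 95 pseudogenes had 4 higher and 6 lower. Among the 1746 transcripts without a symbol, 154 (8.82%) were higher and 44 (2.52%) lower. One of them, which cannot be named here, had the largest positive difference of the array, 1.56.

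The 15 named genes with the largest positive differences lay between 1.30 and 1.48. ERCC6L2, a helicase-like protein of DNA repair, had signals from 5.98 over a median of 6.76 to 7.75 in high cows and from 4.50 over 5.29 to 6.10 in low cows, a difference of 1.48. Its groups touched, and 35 of the 36 high cows lay above the whole range of the low cows. LUC7L3, a splicing factor associated with the U1 particle, ran from 7.96 over 8.50 to 9.01 in high cows and from 6.43 over 7.09 to 7.51 in low cows, a difference of 1.38. Here the groups did not overlap.

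Also without overlap was THOC2, the scaffold of the THO complex that couples transcription to mRNA export. It had 7.70, 8.19 and 8.86 as lowest, median and highest signal in high cows and 6.24, 6.85 and 7.39 in low cows, a difference of 1.40. The remaining genes were ZNF711 (1.45), USP53 (1.38), ZFC3H1 (1.37), ZNF432 (1.36), TBK1 (1.34), USP16 (1.32), UFL1 (1.31), HLTF (1.31), KIF5B (1.30) and ICE2 (1.30), together with LRRN3 (1.39) and RNF128 (1.38). ZFC3H1 guides polyadenylated nuclear RNA to the exosome, ICE2 belongs to a complex for transcription of small nuclear RNA genes, TBK1 is a kinase of innate immunity and KIF5B a heavy chain of kinesin. USP53 was also measured by a further transcript, with a difference of 0.85.

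LRRN3, a leucine-rich repeat membrane protein, and RNF128, an E3 ubiquitin ligase, stood apart from the other 13. LRRN3 had signals of 4.86 to 9.95 in high cows and 4.56 to 8.08 in low cows, and its correlation with the score was 0.55. RNF128 had 7.64 to 11.30 in high cows and 6.25 to 9.79 in low cows, with a correlation of 0.59. In both genes the groups overlapped widely.

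The genes most like the score, by Pearson correlation over 145 cows, were PPP1R12A (0.97), LUC7L3 (0.96), USP8 (0.96), ZFC3H1 (0.95), UFL1 (0.95), SRSF11 (0.95), TBK1 (0.95), PNPLA8 (0.95), DDX46 (0.95) and ZNF280D (0.95). PPP1R12A, the targeting subunit of myosin phosphatase, had 7.59 to 8.62 in high cows and 6.34 to 7.29 in low cows. The genes with the most negative correlation were TM9SF1 (-0.83), DBNL (-0.82), APEH (-0.82), NELFE (-0.82) and GET4 (-0.82). TM9SF1, a multispanning membrane protein, had 9.74 to 10.36 in high cows and 10.17 to 10.54 in low cows, a difference of -0.40.

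Among the lower genes, POLR2L, a small subunit shared by the nuclear RNA polymerases (chromosome 29, 50689638 to 50694425 of UMD3.1), had the largest negative difference, -1.48. Its signals ran from 6.69 over 7.67 to 10.59 in high cows and from 7.43 over 10.00 to 10.97 in low cows. They fell into an upper and a lower cloud in both groups, and 17 of 36 high cows and 27 of 36 low cows lay above the gap between 8.29 and 8.74. LOC509034 showed a wider gap, from 6.45 to 8.78, with 9 high cows and 19 low cows above it. GNLY, which encodes granulysin of cytotoxic lymphocytes (chromosome 11, 49095462 to 49096946 of UMD3.1), had 1.97 to 8.11 in high cows and 2.52 to 9.07 in low cows. Its widest gap lay between 4.61 and 5.08, with 28 high cows and 31 low cows above it. These gaps were looked for after the values had been seen, as the widest with more than 20 cows on either side. POLR2L and GNLY are among the transcripts for which the paper lists associated SNPs. The part of genotype in their differences was not tested.

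S100A11, a calcium-binding protein, was lower without such a gap. It had signals from 7.41 over 8.68 to 10.17 in high cows and from 8.66 over 9.86 to 10.61 in low cows, a difference of -1.18. NDUFS7, a subunit of respiratory complex I, ran from 7.99 over 8.73 to 10.22 in high cows and from 9.07 over 9.53 to 10.01 in low cows, a difference of -0.77. The groups overlapped in both genes, with 17 of 36 high cows below all low cows for S100A11 and 30 for NDUFS7. The other genes of the 15 most negative differences were LOC777594 (-0.94), RPL38 (-0.87), LOC768319 (-0.85), LOC521580 (-0.79), COX8B (-0.78), CTRC (-0.77), POLR2I (-0.77), MIR19A (-0.77), H2AC6 (-0.75) and IFI27 (-0.75), beside LOC509034 (-1.35) and GNLY (-1.11). For LOC768319, H2AC6 and IFI27 the paper also lists associated SNPs.

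**Figure D3:**
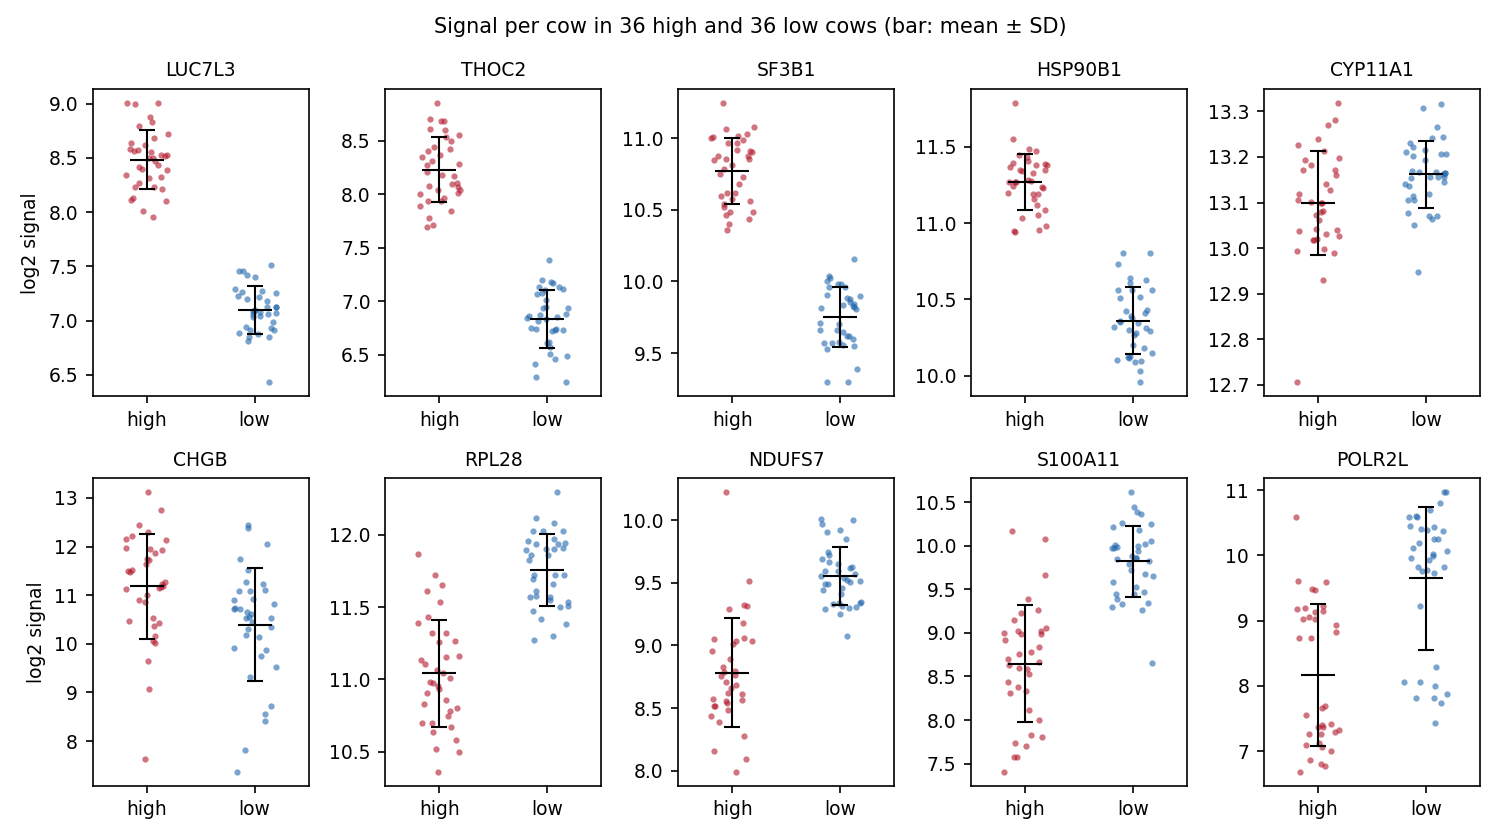
Log2 signal of 10 genes in each of the 36 high (red, left) and 36 low (blue, right) cows, with mean and SD as bars; the vertical axes differ between panels and do not start at 0. LUC7L3, THOC2, SF3B1 and HSP90B1 do not overlap between the groups, CYP11A1 and CHGB overlap widely, and POLR2L has an upper and a lower cloud in both groups.

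Gene lists were described by their counts and their median, to be read beside all 8670 distinct symbols. Of these, 1282 (14.8%) were higher and 280 (3.23%) lower, with a median difference of -0.08. A difference below 0 was found for 4903 of the 8670, and counts of members below 0 are to be read beside it. For 182 of the symbols, every high cow lay above every low cow. Kinases of SR proteins were listed together with others such as HIPK3. Of the 9 measured members 5 were higher and none lower, with a median of 0.62. CLK4, a close relative of CLK1, had 7.50 to 8.97 in high cows and 6.76 to 7.71 in low cows, a difference of 1.11. SRPK1 (0.86), PRPF4B (0.76), HIPK3 (0.71) and SRPK2 (0.62) followed, whereas CLK3 had a difference of -0.29.

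Of 11 SR proteins, the substrates of SR protein kinases, 3 were higher, namely SRSF10 (0.91), SRSF11 (0.85) and TRA2A (0.68), and the median was 0.34. SRSF2 (0.06) and SRSF7 (0.07) lay near 0, and SRSF9 had -0.26. The SR-related and speckle proteins formed the longest such list, with 22 of 32 higher, none lower, 12 without overlap and a median of 0.71. LUC7L3, BCLAF1 (1.21), ZRANB2 (1.16) and SCAF11 (1.14) led it, and U2AF2 (-0.26) and DDX39B (-0.30) were the only members below 0. The mean of the 32 members was 8.33 to 8.90 in high cows and 7.73 to 8.12 in low cows, so that the groups did not overlap. When the 5 arrays were left out, 21 of the 32 were higher and the median was 0.64.

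The hnRNP proteins, which package nascent transcripts, had 8 of 19 higher and none lower, with a median of 0.37. HNRNPA2B1 (0.90), HNRNPR (0.82), HNRNPDL (0.72) and HNRNPH1 (0.68) had the largest values. In the core of the spliceosome the picture was mixed. Of 38 members 3 were higher and 4 lower, and 29 had a difference below 0. SF3B1, the large subunit that holds the branch site, had 10.36, 10.83 and 11.25 as lowest, median and highest signal in high cows and 9.30, 9.81 and 10.16 in low cows, a difference of 1.02. By contrast, SF3B5, a small subunit of the same SF3B complex, had a difference of -0.56, and the ring proteins SNRPD2 (-0.52), LSM7 (-0.51) and LSM4 (-0.51) were also lower. This changed to 2 members higher and none lower without the 5 arrays.

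Of 27 genes for RNA tailing and decay, the field of TUT7, 7 were higher, with a median of 0.16. They included the exosome subunit EXOSC9 (0.79) and the deadenylase subunits CNOT6L (0.71), CNOT7 (0.69) and CNOT2 (0.69), whereas the uridylyl transferase TUT1 had -0.39. Of 5 measured relatives of OSBPL8, OSBPL9 (0.80) alone was higher, near the share over all symbols, and OSBP had -0.26.

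Components of protein synthesis and respiration mostly had negative differences, as had 4903 of all 8670 symbols. Of 40 cytoplasmic ribosomal proteins 37 lay below 0, 5 were lower and none was higher, with a median of -0.27. RPL28 had 10.36 to 11.86 in high cows and 11.27 to 12.29 in low cows, a difference of -0.71, and RPS28 (-0.60) and RPLP2 (-0.57) followed RPL38 (-0.87). Complex I and cytochrome c oxidase, counted with subunits of complex III, had 41 of 49 members below 0, 10 lower and none higher, with a median of -0.38. ATP synthase had 3 of 17 lower and a median of -0.17, led by ATP5ME (-0.61) and ATP5F1D (-0.60). When the 5 arrays were left out, 3 ribosomal proteins, 6 subunits of the respiratory complexes and 2 of ATP synthase were lower.

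Of 75 mitochondrial ribosomal proteins 63 lay below 0, 5 were lower and 5 higher, with a median of -0.31. Without the 5 arrays 2 were lower and 5 higher. MRPL1 (0.77) and MRPS10 (0.60) stood at the upper end and MRPL11 (-0.65) at the lower. All 21 replication-dependent histones had differences below 0. Of them 5 were lower, led by H2AC6 (-0.75) and H2BC3 (-0.71) and with H2AC20 (-0.63) among them. Without the 5 arrays 6 were lower. Ribosomal, histone and major histocompatibility genes have near-identical copies, and probes may not separate them.

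In the proteasome 5 of 35 subunits were higher, close to the share over all symbols, and 5 were lower, or 5 and 3 without the 5 arrays. PSMD12, a lid subunit, had 9.15 to 10.01 in high cows and 8.10 to 8.97 in low cows, without overlap, whereas PSMA5, a subunit of the core, had 7.01 to 8.95 in high cows and 8.04 to 9.15 in low cows. The differences were 1.01 for PSMD12 and -0.72 for PSMA5. RNA polymerase II, listed after its values had been seen, had 2 of 13 subunits higher, POLR2B (0.99) and POLR2K (0.61), and 2 lower, POLR2I (-0.77) and POLR2L (-1.48). The 2 of 13 higher were close to the share over all symbols. In the translocation of secretory proteins, SEC62 (1.20), SRP72 (1.13), SEC63 (0.98), SRP54 (0.79) and STT3B (0.69) were higher among 27 members and none was lower, with SEC61G (-0.48) and SEC61B (-0.45) as the most negative. These 5 of 27 were also near the share over all symbols.

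Among 21 chaperones, DNAJB4 (0.99), HSP90B1 (0.91), HSPH1 (0.89) and HSPA4 (0.80) were higher, near the share over all symbols, and the median was 0.01. HSP90B1, the chaperone of the endoplasmic reticulum, had 10.94 to 11.79 in high cows and 9.95 to 10.81 in low cows, without overlap. The stress-inducible HSPA1A had -0.30 and HSPB1 -0.42. None of 20 immediate early genes passed 0.5 in either direction, with EGR1 (0.40) and FOSB (-0.45) at the ends. Of 15 tRNA synthetases, IARS1 (0.78), RARS1 (0.76), EPRS1 (0.73) and TARS1 (0.54) were higher, although the median was -0.19.

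Chromatin remodellers and lysine methyltransferases had 7 of 24 higher, none lower and a median of 0.37, with KMT2E (1.04), PHF3 (1.01), SMARCA5 (0.90) and SETD2 (0.79) leading. Of 142 genes named ZNF, 32 were higher and none lower, and the median was 0.08. Among 7 long coiled-coil proteins of the Golgi and the centrosome, 4 were higher, led by TRIP11 (1.16).

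**Figure D4:**
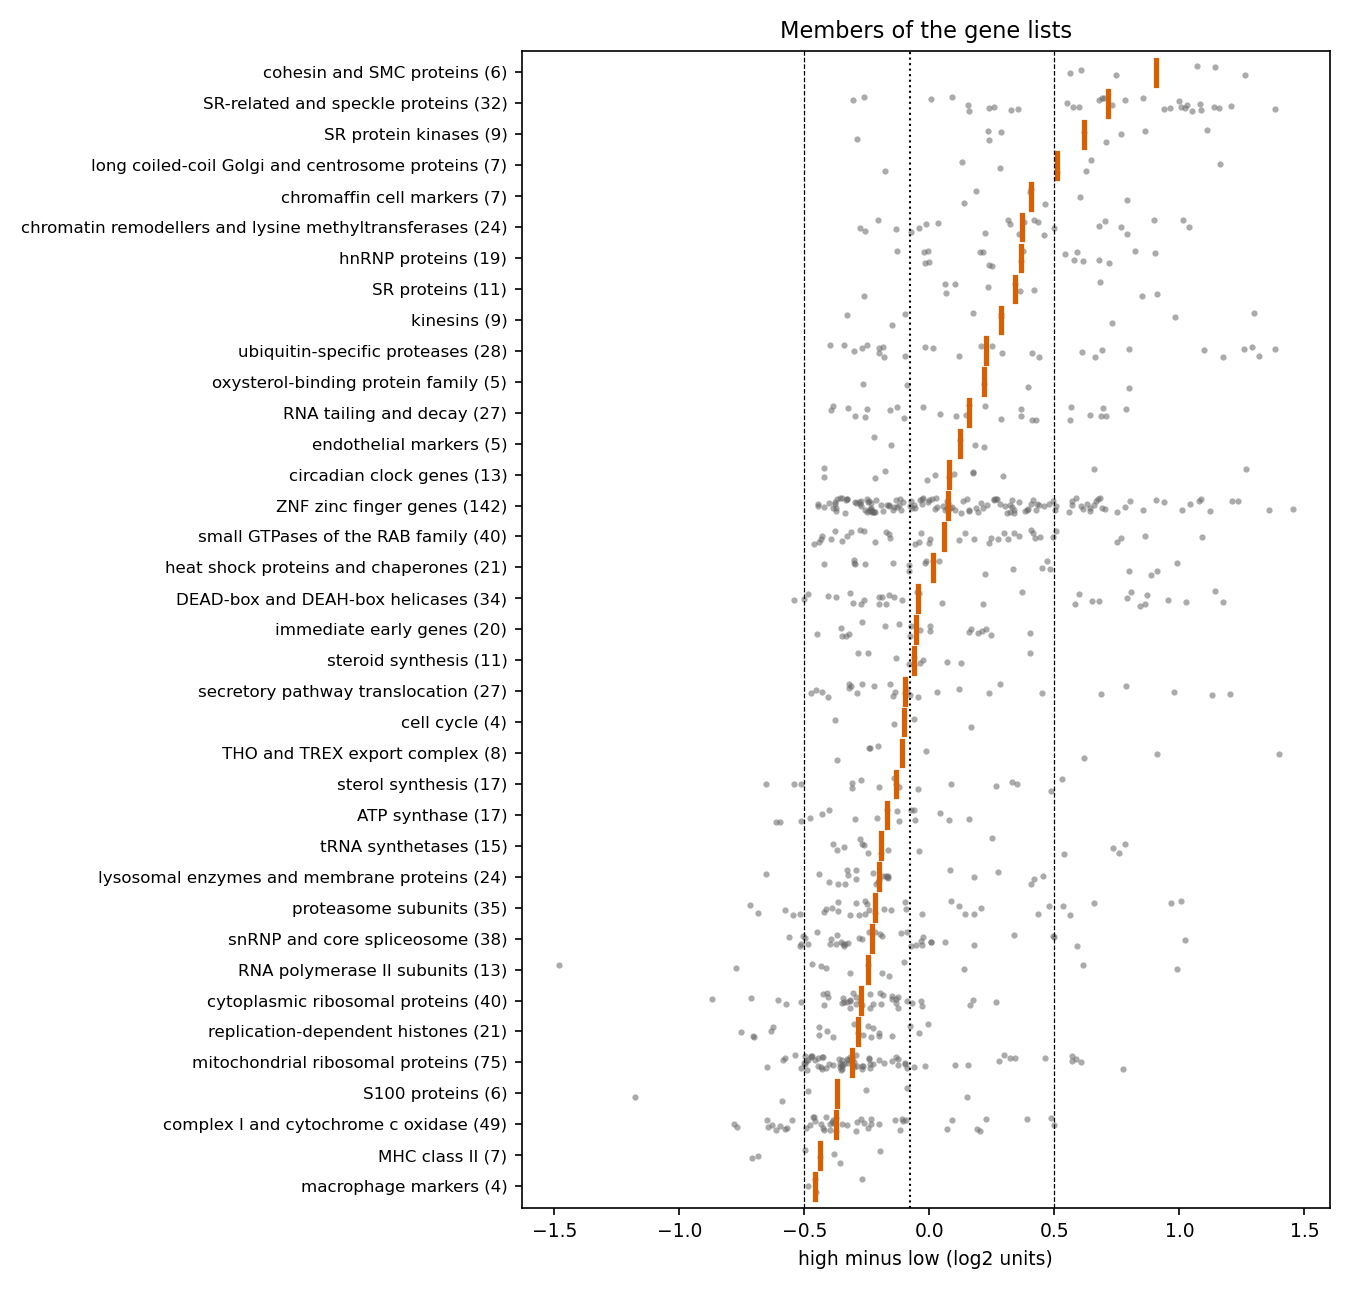
Difference of the group means (high minus low, log2 units) of each measured member (grey points) of the gene lists with at least 4 measured members, whose number stands in brackets, and the list median (orange bar). Dashed lines mark -0.5 and 0.5 and the dotted line the median of all 8670 symbols; SR-related and speckle proteins lie mostly right of 0.5, and all 21 replication-dependent histones lie left of 0.

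Of the 14 listed genes of cortical steroid synthesis 11 were measured, and nothing is known here of the others. None of the 11 passed 0.5 in either direction, and their median difference was -0.06. The median signal of the list was 12.73, while the highest value on any array was 14.50, and whether signals near the top of the scale show differences in full was not tested. CYP17A1 (-0.08), CYP21A2 (-0.06), FDX1 (0.07), SCARB1 (-0.04) and MC2R (0.13), the receptor of corticotropin, lay close to 0, and CYB5A (0.40) and the electron donor POR (-0.29) were at the ends. NR5A1, the nuclear receptor that controls steroidogenic genes, had -0.24, and MRAP, the accessory protein of the corticotropin receptor, had -0.13. In sterol synthesis, which supplies cholesterol, CYP51A1 (0.53) was higher among 17 members and TM7SF2 (-0.65), MVD (-0.54) and MVK (-0.52) were lower. With the 5 arrays left out, 1 of the 17 was lower and none higher. Of 24 lysosomal genes GRN (-0.66) alone was lower, close to the share over all symbols.

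Markers of other cell types were described in the same way, and most of the measured ones stayed within 0.5. All 7 measured of 8 chromaffin markers had positive differences and 2 were higher, CHGB (0.79) and SCG2 (0.60). The mean of the 7 markers was 6.83 to 11.39 in high cows, with a median of 9.69, and 7.09 to 10.95 in low cows, with a median of 9.29. CHGB, a granule protein of these cells, had 7.63, 11.24 and 13.12 in high cows and 7.37, 10.58 and 12.45 in low cows as lowest, median and highest signal. The groups overlapped nearly over their whole range, and the correlation with the score was 0.30, so that chromaffin RNA was present at widely different levels in both groups. In such bulk samples, fewer cells of a type and less RNA per cell cannot be told apart.

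Markers of macrophages and of T and NK cells had the opposite sign. All 4 measured of 6 macrophage markers had differences from -0.49 (CD68) to -0.27 (CD14), and the mean of the 4 was 6.58 to 9.46 in high cows, with a median of 7.19, and 6.87 to 8.45 in low cows, with a median of 7.77. The 3 measured of 6 markers of T and NK cells had -0.40 (CD3E), -0.48 (CD3D) and -0.70 (NKG7), with means of 6.01 to 8.86 in high cows and 6.86 to 9.00 in low cows. Of 4 markers of B and plasma cells, CD79A (-0.35) and JCHAIN (0.00) were measured.

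The fibroblast matrix genes LUM (1.00) and DCN (0.47), 2 measured of 5, were above 0, and their mean was 10.19 to 12.17 in high cows and 8.92 to 11.37 in low cows. Of 6 endothelial markers 5 were measured, with differences from -0.22 (CDH5) to 0.22 (KDR) and means of 8.74 to 9.75 in high cows and 8.84 to 9.74 in low cows. The smooth muscle markers CNN1 (-0.28) and TAGLN (-0.36), 2 measured of 4, had means of 8.21 to 10.60 in high cows and 8.56 to 10.13 in low cows. The Schwann cell marker S100B, 1 measured of 3, had a difference of 0.15, and none of the 3 red cell and 4 adipocyte markers was measured. The part of any of these cells in the differences of the other genes was not tested.

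Year, age and season of slaughter come from the labels and took no part in the choice of the cows. High cows had been slaughtered earlier, in 2007.6 ± 1.96 on average, against 2008.9 ± 1.46 for low cows (SD, n = 36 each). The difference of -1.36 years passed a two-sided permutation test with 100000 resamples (p = 0.00162, adjusted over 3 label comparisons 0.00486). Over the 8 years of slaughter, numbered here from year 1 to year 8, which was 2011, the high cows numbered 2, 6, 2, 6, 9, 4, 5 and 2, and the low cows 0, 1, 0, 6, 6, 9, 9 and 5. Leaving out the 5 arrays gave a difference of -1.19 years (adjusted p = 0.0186, permutation test). A winter label spans 2 years, and the 26 winter cows of all 145 were counted for the year in which their winter began. Counted for the later year, the difference was -1.33 years (adjusted p = 0.00978, permutation test), and without winter cows it was -1.64 years, with 28 high and 29 low cows (adjusted p = 0.00402, permutation test). The test treated the cows as independent, although they were related and shared year-season classes.

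Age and season did not pass the same kind of test. High cows were 1342 ± 149 days old and low cows 1324 ± 135 days, a difference of 17.6 days (permutation test, p = 0.602, adjusted 0.602). For season, the high cows numbered 11 in spring, 10 in summer, 7 in autumn and 8 in winter, and the low cows 7, 10, 12 and 7. The chi-square of group by season was 2.27 (permutation test, p = 0.534, adjusted 0.602).

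**Figure D5:**
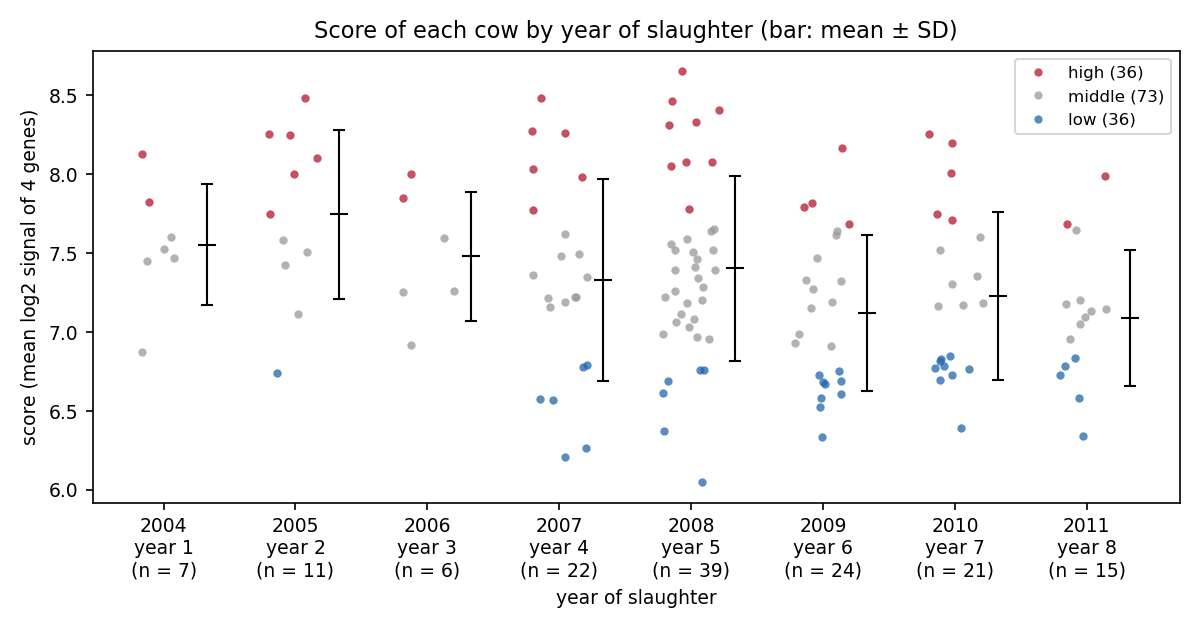
Score of each of 145 cows by year of slaughter, with high cows in red, middle cows in grey and low cows in blue, and mean and SD of all cows of a year as black bars. The yearly mean is highest in year 2 (7.75) and lowest in year 8 (7.09), and cows of both groups occur in each year from year 4 on.

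The mean score was highest in year 2, at 7.75 ± 0.53 (SD, n = 11), and lowest in year 8, at 7.09 ± 0.43 (SD, n = 15). The cows of a single year spread widely around these means, with SDs from 0.38 to 0.64. The 4 years with at least 4 cows of either group were described separately. High cows minus low cows of the same year gave 1501 transcripts higher and 628 lower in year 4 (6 high, 6 low cows), 2296 and 1444 in year 5 (9 and 6), 1558 and 426 in year 6 (4 and 9) and 1421 and 338 in year 7 (5 and 9). Of the 1512 transcripts, 1317, 1481, 1292 and 1299 were also higher in these years. The 349 had 271, 276, 197 and 143 members that were also lower. Over all transcripts, 13.7%, 20.9%, 14.2% and 12.9% were higher and 5.72%, 13.1%, 3.88% and 3.08% were lower. The cows of each year were among those whose means had called the 1512 and the 349. Their scores still differed by 1.60, 1.70, 1.25 and 1.25 between the groups. Recurrence was therefore built in, and these counts are only a description.

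LUC7L3 had differences of 1.48, 1.48, 1.25 and 1.23 in these 4 years, and THOC2 had 1.51, 1.47, 1.37 and 1.12. S100A11 had -1.26, -0.94, -1.09 and -0.85, and NDUFS7 had -0.84, -1.01, -0.63 and -0.60. For these genes the difference was present within each of the 4 years, among cows that the score had already chosen. Whether it depends on year was not tested by these values. LRRN3 ranged from 0.50 in year 7 to 2.57 in year 5, GNLY from -0.30 in year 6 to -2.11 in year 4, and LOC509034 had 0.40 in year 7 and -2.17 in year 4, so that its direction turned.

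Year-season classes were tested over all 145 cows with limma. The F-test over 25 classes with age as a covariate called 1273 transcripts (11.6%) at an adjusted p of 0.05. It called 583 without the cows of year 7 and 714 without those of year 8. A further fit had year as a linear term, season, age and the class as a random block. In it, 2827 transcripts (25.7%) rose with year and 2110 (19.2%) fell. The correlation within classes was estimated at -0.0154, and without the block 2725 rose and 1996 fell. The score genes themselves had slopes of -0.11 (TUT7), -0.10 (PNISR), -0.07 (CLK1) and -0.06 (OSBPL8) log2 units per year, given as a description because they chose the cows.

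Of the 1512 transcripts higher in high cows, 774 fell and 4 rose with year, and of the 349 lower ones, 254 rose and 1 fell. These counts rest on the same arrays as the score. Among the speckle proteins 19 of 32 fell and none rose, and LUC7L3 had a slope of -0.10 per year (SE 0.022, adjusted p = 6.25e-05 by limma). LUC7L3 was named through the score, with a correlation of 0.96, so its slope is no separate result. Of the chromatin genes 20 of 24 fell. Conversely, 37 of 40 cytoplasmic ribosomal proteins, 57 of 75 mitochondrial ones and 42 of 49 subunits of the respiratory complexes rose.

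PSMA5 rose by 0.13 per year (SE 0.017, adjusted p = 1.93e-10 by limma), S100A11 by 0.15 (SE 0.027, adjusted p = 2.22e-06) and RPL28 by 0.09 (SE 0.015, adjusted p = 3.50e-07). These genes had been named for their differences between high and low cows, so their slopes are a description as well. Several genes with a large difference had no called slope. POLR2L had a slope of 0.05 (SE 0.055, adjusted p = 0.452 by limma), HSP90B1 -0.04 (SE 0.016, adjusted p = 0.0561) and ERCC6L2 -0.05 (SE 0.027, adjusted p = 0.119). None of the 7 chromaffin markers passed the threshold for a slope on year.

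Between summer and winter, limma called 0 transcripts higher and 0 lower in summer. At an unadjusted p under 0.05 there were 1477, and the smallest adjusted p was 0.0773. Leaving out the 5 arrays, 1 transcript was higher in summer.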

How the data were processed

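Adrenal cortex RNA of 145 cows had been hybridised to a custom Affymetrix bovine gene array. The deposited values are log2 signals that the authors made with RMA (background correction, quantile normalization, probe summary) in Affymetrix Expression Console, keeping transcripts detected above background. Quantile normalization makes the arrays alike in the distribution of probe signals, so all differences are relative within an array. The deposited transcript values still differed in spread, with interquartile ranges of 2.21 to 2.40 in high cows and 2.33 to 2.54 in low cows. The table has 147 columns, and 2 empty ones were left out. Among the transcripts, 8863 had 1 platform symbol, 377 several and 1746 none. Of the 8863 transcripts, 8729 had a symbol found in RefSeq (ARS-UCD2.0, names and classes only).

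The 4 score genes, the row of highest mean for each symbol, gave the score. Transcripts were called at a difference of 0.5 log2 units, without a test. Winter labels span 2 years, and the year in which a winter began was used. Year, age and season were compared by permutation (SciPy 1.17.1). Label effects came from limma 3.58.1 (R 4.3.3; duplicateCorrelation, statmod 1.5.0) with Benjamini-Hochberg adjustment over all transcripts, and the fits were tested on simulated data. Sire and dam terms were not refitted.

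The cows, lists and tests were chosen with earlier results of these data known, and 10 of 44 lists were added after seeing values. Named were the 15 largest differences each way, the 10 highest and 5 lowest correlations with the score, up to 4 members per list with the largest difference and all steroid genes; other members were named after seeing their values. The number of arrays limits the precision.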

Additional observations from a re-analysis of the deposited data

Results flagged for a closer look

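The score of single cows was compared with the other cows of the same year-season class in the 19 classes with 4 to 10 cows. In autumn 2008 the highest cow had a score of 8.31, and the next of the 10 cows had 7.396. In autumn 2010 the highest cow had 8.01, and the next of the 6 cows had 7.171. Both gaps exceeded the critical share of the class range in Dixon's test. Chance marks about 1 in 20 such classes. The score is the value that chose the groups, so these gaps are a description.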

How the results depend on the processing

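The count of lower transcripts moved most with the setting. It was 701 with 29 cows in each group, 125 with 48, 206 on residuals of class and age and 169 without the 5 arrays of lowest correlation. At 0.3 log2 units the counts were 2495 higher and 2467 lower, and at 1 log2 unit 192 and 4. The F-test over classes called 583 transcripts without 2010 and 714 without 2011. Summer against winter gave 1 higher transcript without the 5 arrays. Other counts stayed within 1.5 times their value, and the cause of the changes was not tested. The difference in year kept its call in all 7 alternatives, from -1.64 to -1.15 years, of which the later year for winter cows (-1.33) and their omission (-1.64) were chosen after seeing the data. The later year left the slopes on year as they were, since season is a term of that fit, and 3 years then held at least 4 cows of either group, with 2416 higher and 1764 lower transcripts in 2008, 1607 and 434 in 2009 and 942 and 196 in 2011. Of the gene slopes on year, 147 values lost and 36 gained their call, and 2704 did not change it. Under these alternatives no difference or slope with a call reversed, but within 2010 alone LOC509034, called lower at -1.35, had 0.40. No paired analysis was possible because cow numbers only name cows within a class and different classes hold different cows.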

Other observations

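Further gene groups were looked at after their values had been seen, and their counts support nothing. Of all 8670 symbols, 1282 (14.8%) were higher and 280 (3.23%) lower, and 182 had every high cow above every low cow. A difference below 0 was found for 4903 of them. All 6 measured cohesin and SMC genes, which form, load or release the ring that holds sister chromatids, were higher in high cows, from PDS5B (1.26) and PDS5A (1.14) over NIPBL (1.07) and WAPL (0.75) to SMC1A (0.61) and RAD21 (0.56). PDS5B had 8.27 to 9.56 in high cows and 6.86 to 8.14 in low cows, without overlap. Of 28 ubiquitin-specific proteases 10 were higher and none lower, and 6 of them did not overlap, with USP53 (1.38), USP16 (1.32), USP8 (1.29) and USP1 (1.26) leading and USP36 (-0.40) at the lower end. Of 34 DEAD-box and DEAH-box helicases 13 were higher, led by DHX36 (1.18) and DDX46 (1.14), and 2 were lower, with DDX56 (-0.54) at the end, although their median was -0.04. None of these helicases was lower once the 5 arrays were left out.

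Of 13 circadian clock genes, CLOCK (1.27) and RORA (0.66) were higher, which is close to the share over all symbols. PER1 (-0.42) and DBP (-0.42) had negative differences. CLOCK had 7.91 to 9.36 in high cows and 6.76 to 7.73 in low cows, without overlap. Among 9 kinesins KIF5B (1.30), KIF2A (0.98) and KIF23 (0.73) were higher. Of 40 RAB proteins 5 were higher, close to the share over all symbols, led by RAB3C (1.09), RAB27A (0.86) and RAB1A (0.77). THOC2 (1.40), ZC3H11A (0.91) and THOC7 (0.62) were higher among 8 members of the mRNA export complex, and ALYREF had -0.37. All 7 class II genes of the major histocompatibility complex had negative differences, from -0.20 (BOLA-DRB3) to -0.71 (BOLA-DQA1), and of 6 S100 genes S100A11 (-1.18) and S100A16 (-0.59) were lower. S100A16 had -0.47 without the 5 arrays, which left 1 of the 6 lower.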
